A study of Danio rerio with 3 samples.

Results

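The genes described here are those of the Wnt signalling pathway in zebrafish larvae exposed to BDE47 (2,2′,4,4′-tetrabromodiphenyl ether, a brominated flame retardant). They were chosen by name: a gene was taken if its symbol in the deposited table began with that of a Wnt ligand, an R-spondin, a Frizzled, Lrp5/6 or Lgr receptor, a secreted antagonist (dkk, sfrp, frzb, wif1, notum), or dvl, axin, apc, gsk3, ctnnb, lef1, tcf7, ror2 or vangl. The names matched 74 of the 19814 named mRNA genes. The name rule itself uses no expression value, but it was set with earlier results of these data known. Of these genes, 72 encode proteins of the pathway. The other 2 shared only their names: ctnnbl1 encodes a protein associated with splicing, and lgr8 had no counterpart in RefSeq and carries a name once used for a relaxin family receptor. No row was named ror2.

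The study asked how exposure to BDE47 changes the transcriptome of whole larvae. Each of the 3 conditions analysed here had 1 library, made from pooled whole larvae of the Tuebingen strain at 6 days post fertilization (dpf). From the first hours after fertilization the larvae were kept in DMSO vehicle alone, in BDE47 at 5 μg/L (the low dose) or in BDE47 at 500 μg/L (the high dose), and all 3 media held the DMSO vehicle. A pool of whole larvae holds every organ, so fewer cells of a type and less RNA per cell cannot be told apart.

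Wnt proteins are secreted ligands that bind Frizzled receptors. With the co-receptors Lrp5 and Lrp6 they hold back a destruction complex of Axin, Apc and Gsk3, so that beta-catenin accumulates and acts with Tcf/Lef factors on target genes. Other Wnt ligands act without beta-catenin, among them those of the planar cell polarity branch with Vangl, which orients cells within a tissue. In fish larvae the pathway is known for its part in patterning the brain and eye and in growth of the fins, skeleton and gut.

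The deposited values were reads counted per gene and scaled by the trimmed mean of M-values (TMM), called normalized counts below. They are not corrected for gene length, so the levels of different genes are not ranked here. They were whole multiples of the worth of 1 read, which was 0.790 normalized counts in DMSO vehicle, 1.09 at the low dose and 1.25 at the high dose, so the reads could be recovered. The named mRNA genes held 34156825 reads in DMSO vehicle, 25125399 at the low dose and 22186369 at the high dose. The 74 Wnt pathway genes took 69454, 47796 and 33953 of these reads, which was 0.203%, 0.190% and 0.153% of the reads on named genes. A Wnt pathway gene had a median of 384 reads in DMSO vehicle (range 18 to 12754), 226.5 at the low dose (6 to 8275) and 181 at the high dose (7 to 5884). The exposed libraries were the shallower ones, so the genes with the fewest reads carried the widest errors there.

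Fold changes are given relative to DMSO vehicle, as ratios of normalized counts. Each has a 95% confidence interval (CI), the exact Clopper-Pearson interval from the reads of both libraries. With 1 library per condition, no difference had a replicate check and no p-value is given. The reads carried no molecular identifiers, and the intervals cover counting error only: how much pools of larvae or their libraries vary was not measured. A gene was called changed at 2-fold or more in either direction, provided that it reached 10 normalized counts in a library of the comparison. All 74 Wnt pathway genes passed that minimum in both comparisons.

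At the high dose, 5 of the 74 Wnt pathway genes were called changed, beside 12.1% of the 17758 named mRNA genes tested. The ligand wnt5a was higher, beside 7.40% of all genes, and the ligands wnt3 and wnt7bb, the receptor fzd9 and the transcription factor tcf7 were lower, beside 4.74% of all genes. Over both directions, the share of Wnt pathway genes called was below the share of all genes at 2-fold, but not at 1.5-fold. By direction at 2-fold, it was below for higher calls (1 of 74 beside 7.40%) and not for lower calls (4 of 74 beside 4.74%). Smaller differences went mostly one way: 55 of the 74 genes (74.3%) had a fold change below 1, beside 51.1% of all genes. Of all 74 genes, the CI lay wholly below 1 for 42, beside 30.6% of all genes, and wholly above 1 for 6, beside 31.0%. Such counts depend on depth. In DMSO vehicle the median reads per gene were 384 for the Wnt pathway genes and 312 for all named mRNA genes.

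The median log2 fold change of the 74 genes at the high dose was -0.33 (pseudocount 1), and that of all named mRNA genes was -0.02. Among genes that reached 100 normalized counts in either library, 43 of 55 Wnt pathway genes (78.2%) lay below 1 with a median of -0.39, and 50.05% of 13543 named genes did, with a median of -0.00. The whole distribution of Wnt pathway genes sat to the left of that of all genes between its lower and upper quartiles, which were -0.65 and 0.01 for the pathway and -0.38 and 0.38 for all genes.

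**Figure D1:**
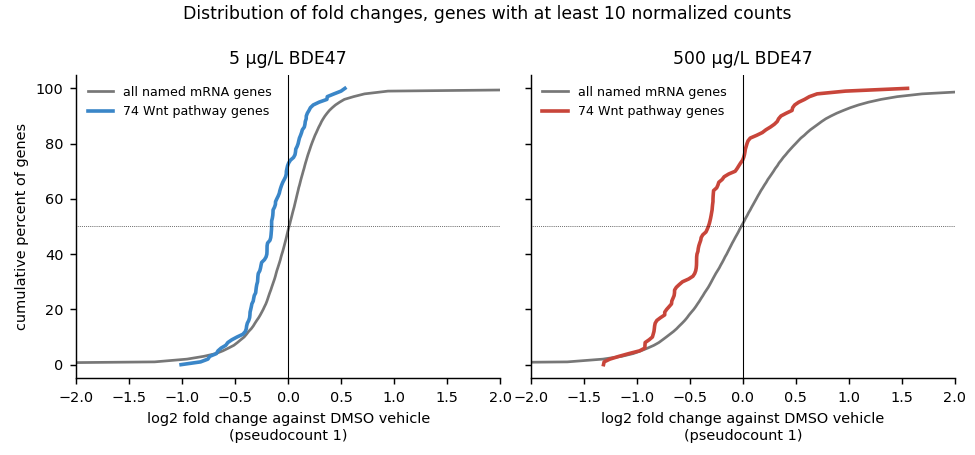
Cumulative percent of genes (vertical axis) by log2 fold change against DMSO vehicle with a pseudocount of 1 (horizontal axis, drawn from -2 to 2), for BDE47 at 5 μg/L on the left and 500 μg/L on the right. Grey lines are all named mRNA genes with at least 10 normalized counts and coloured lines the 74 Wnt pathway genes, whose medians were -0.16 and -0.33 beside 0.01 and -0.02 for all genes.

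At the low dose, 1 of the 74 genes was called changed, beside 2.92% of the 17670 named mRNA genes tested. It was the ligand wnt7ba, which was lower, beside 1.97% of all genes, and it rested on few reads. None of the 74 was called higher, beside 0.951% of all genes. Of the 74 genes, 54 (73.0%) lay below 1, beside 48.8% of all genes, and the median log2 fold change was -0.16, beside 0.01 for all genes. The CI lay wholly below 1 for 23 genes, beside 17.8% of all genes, and wholly above 1 for 7, beside 21.5%. Both doses were compared with the same vehicle library, so these counts are not independent of those at the high dose.

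The 5 genes called at the high dose were measured there by 15 (wnt3) to 61 (wnt5a) reads. In DMSO vehicle they had 32 (wnt5a) to 168 (fzd9) reads. For wnt5a, a ligand best known for signalling without beta-catenin, the values were 25.3 normalized counts in DMSO vehicle, 21.9 at the low dose and 76.2 at the high dose, from 32, 20 and 61 reads. Only the library at the high dose stood apart, with a fold change of 3.01 (95% CI 1.93 to 4.78), while the low dose gave 0.864 (0.469 to 1.56).

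For wnt3, a ligand of the beta-catenin branch, the values were 40.3, 56.8 and 18.7 normalized counts in DMSO vehicle, at the low dose and at the high dose. The highest value was thus at the low dose and the lowest at the high dose, with fold changes of 1.41 (95% CI 0.940 to 2.12) and 0.465 (0.243 to 0.840). For wnt7bb, a copy of Wnt7b, which in the mouse acts on growth of brain vessels, the values were 88.5, 86.4 and 35.0 normalized counts. DMSO vehicle and the low dose lay close together, with a fold change of 0.976 (0.722 to 1.31), and the high dose gave 0.395 (0.251 to 0.602).

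The receptor gene fzd9 held 133 normalized counts in DMSO vehicle, 110.4 at the low dose and 57.5 at the high dose. Its fold change was 0.831 (95% CI 0.643 to 1.07) at the low dose and 0.433 (0.305 to 0.603) at the high dose. The nuclear factor tcf7, a partner of beta-catenin on DNA, held 66.4, 50.3 and 26.2 normalized counts, and its fold change was 0.757 (0.517 to 1.10) and then 0.395 (0.233 to 0.643). Both genes were highest in DMSO vehicle and lowest at the high dose.

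The wnt7ba call at the low dose rested on 18 reads in DMSO vehicle and 6 at the low dose. The values were 14.2 normalized counts in DMSO vehicle, 6.56 at the low dose and 8.74 at the high dose, and the fold change at the low dose was 0.461 with a 95% CI of 0.150 to 1.21 that included 1. The CIs of all 5 calls at the high dose excluded 1, but none lay wholly beyond the 2-fold threshold. Just short of it were wnt2bb at 0.519, fzd3a and sfrp2 at 0.526 and fzd8b at 0.550. Where replicates were taken to vary with a biological coefficient of variation (BCV) of 0.2 in edgeR's exact test, none of the 74 genes was called at either dose.

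**Figure D2:**
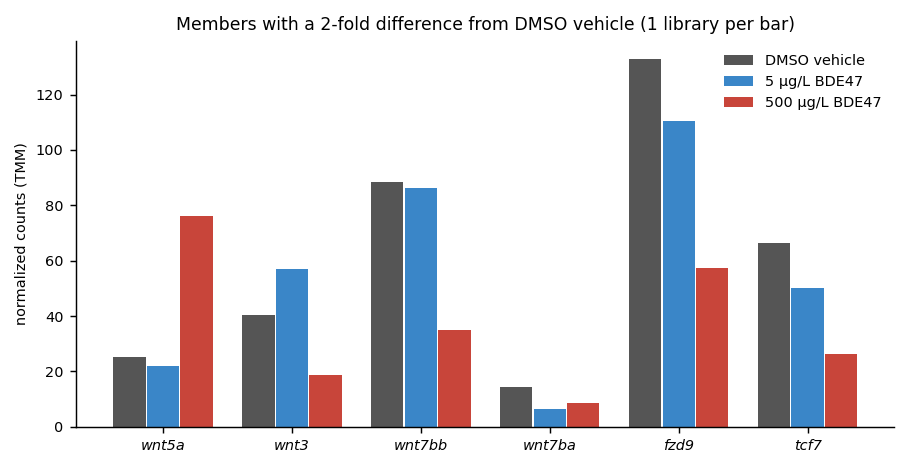
Normalized counts (vertical axis, from 0) of the 6 Wnt pathway genes with a 2-fold difference from DMSO vehicle at either dose, with 1 bar for each library and no error bars because there was 1 library per condition. For BDE47 at 500 μg/L wnt5a stood at 76.2 against 25.3 in DMSO vehicle, while wnt3, wnt7bb, fzd9 and tcf7 were lower than in DMSO vehicle. For wnt7ba all 3 bars are under 15 normalized counts.

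The 23 Wnt ligand genes went in both directions. Of these, 15 lay below 1 and 8 above at the high dose, with a median log2 fold change of -0.28. The CI lay wholly below 1 for 8 of the 23, close to the 30.6% of all genes. It lay wholly above 1 for 2, beside 31.0% of all genes. The low dose left 17 below 1 with a median of -0.29. The values of the ligand gene wnt11r (wnt11 in RefSeq) were 1418 normalized counts in DMSO vehicle, 1583 at the low dose and 1043 at the high dose. It was highest at the low dose and lowest at the high dose, with fold changes of 1.12 (95% CI 1.04 to 1.20) and 0.736 (0.677 to 0.799).

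Related ligands lay on opposite sides of 1 at the high dose. The gene wnt5b, whose loss in zebrafish impairs extension of the body axis, held 223 normalized counts in DMSO vehicle, 183 at the low dose and 136 at the high dose, where its fold change was 0.611 (95% CI 0.485 to 0.765). Its lowest value was thus in the library where wnt5a had its highest. The gene wnt4b held 304, 279.9 and 431 normalized counts, with a fold change of 1.42 (1.22 to 1.64) at the high dose, while its copy wnt4a held 240.3, 195 and 194, with 0.806 (0.660 to 0.981).

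The ligands wnt2 and wnt9b had their lowest value at different doses. For wnt2 the values were 139, 108 and 77.5 normalized counts in DMSO vehicle, at the low dose and at the high dose, and the fold change at the high dose was 0.557 (95% CI 0.410 to 0.748). For wnt9b they were 320.1, 212 and 264, and the fold change was 0.663 (0.555 to 0.788) at the low dose and 0.823 (0.694 to 0.975) at the high dose. Some genes with fewer reads, among them wnt1, wnt3a, wnt8a, wnt8b, wnt9a, wnt10a and wnt16, had CIs at the high dose that included 1. Smaller differences could be missed at this depth. Other ligand genes with few reads, among them wnt5a, wnt3 and wnt2bb, had CIs there that excluded 1.

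R-spondins are secreted proteins that strengthen Wnt signalling through Lgr receptors. The values of rspo3 were 248 normalized counts in DMSO vehicle, 192 at the low dose and 256 at the high dose, with fold changes of 0.775 (95% CI 0.641 to 0.935) and 1.03 (0.861 to 1.23). Those of rspo1 were 91.7, 133 and 119, with 1.45 (1.12 to 1.89) and 1.29 (0.976 to 1.71). The pair thus lay on opposite sides of 1 at the low dose. Among the Lgr receptor genes, lgr4 held 712, 585 and 447 normalized counts and its fold change was 0.821 (0.737 to 0.915) and 0.628 (0.554 to 0.711). For lgr6 the values were 376, 356 and 396, and both CIs included 1.

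Nearly all genes for the receptors of Wnt ligands lay below 1 at the high dose. They numbered 13 of the 14 Frizzled and Lrp5/6 genes, with a median log2 fold change of -0.59. The CI lay wholly below 1 for 12 of the 14, beside 30.6% of all genes. Only fzd9 among the 14 was called changed, beside 12.1% of all genes. The range was 0.433 to 1.21. With the low dose, 10 of the 14 lay below 1 and the median was -0.16. The CI lay wholly below 1 for 5, beside 17.8% of all genes.

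The values of the Frizzled gene fzd7a were 1939 normalized counts in DMSO vehicle, 1967 at the low dose and 1460.3 at the high dose. DMSO vehicle and the low dose were nearly equal, and the high dose gave 0.753 (95% CI 0.702 to 0.808). Its copy fzd7b held 1703, 1972 and 2057 normalized counts and was the single receptor gene above 1 at the high dose, with fold changes of 1.16 (1.09 to 1.23) and 1.21 (1.13 to 1.29).

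The values of fzd2 were 1286, 1164 and 736 normalized counts, with 0.572 (95% CI 0.520 to 0.629) at the high dose, and those of fzd3a were 541, 453 and 285, with 0.526 (0.451 to 0.612). Both were lowest at the high dose, and so were fzd3b, fzd5, fzd8a and fzd8b, whose fold changes there were 0.559, 0.636, 0.675 and 0.550. The co-receptor gene lrp6 held 712, 554 and 467 normalized counts (0.656, 0.580 to 0.741). For lrp5 the lowest value was at the low dose instead, with 939, 697 and 772 normalized counts and fold changes of 0.743 (0.674 to 0.818) and 0.822 (0.745 to 0.907).

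**Figure D3:**
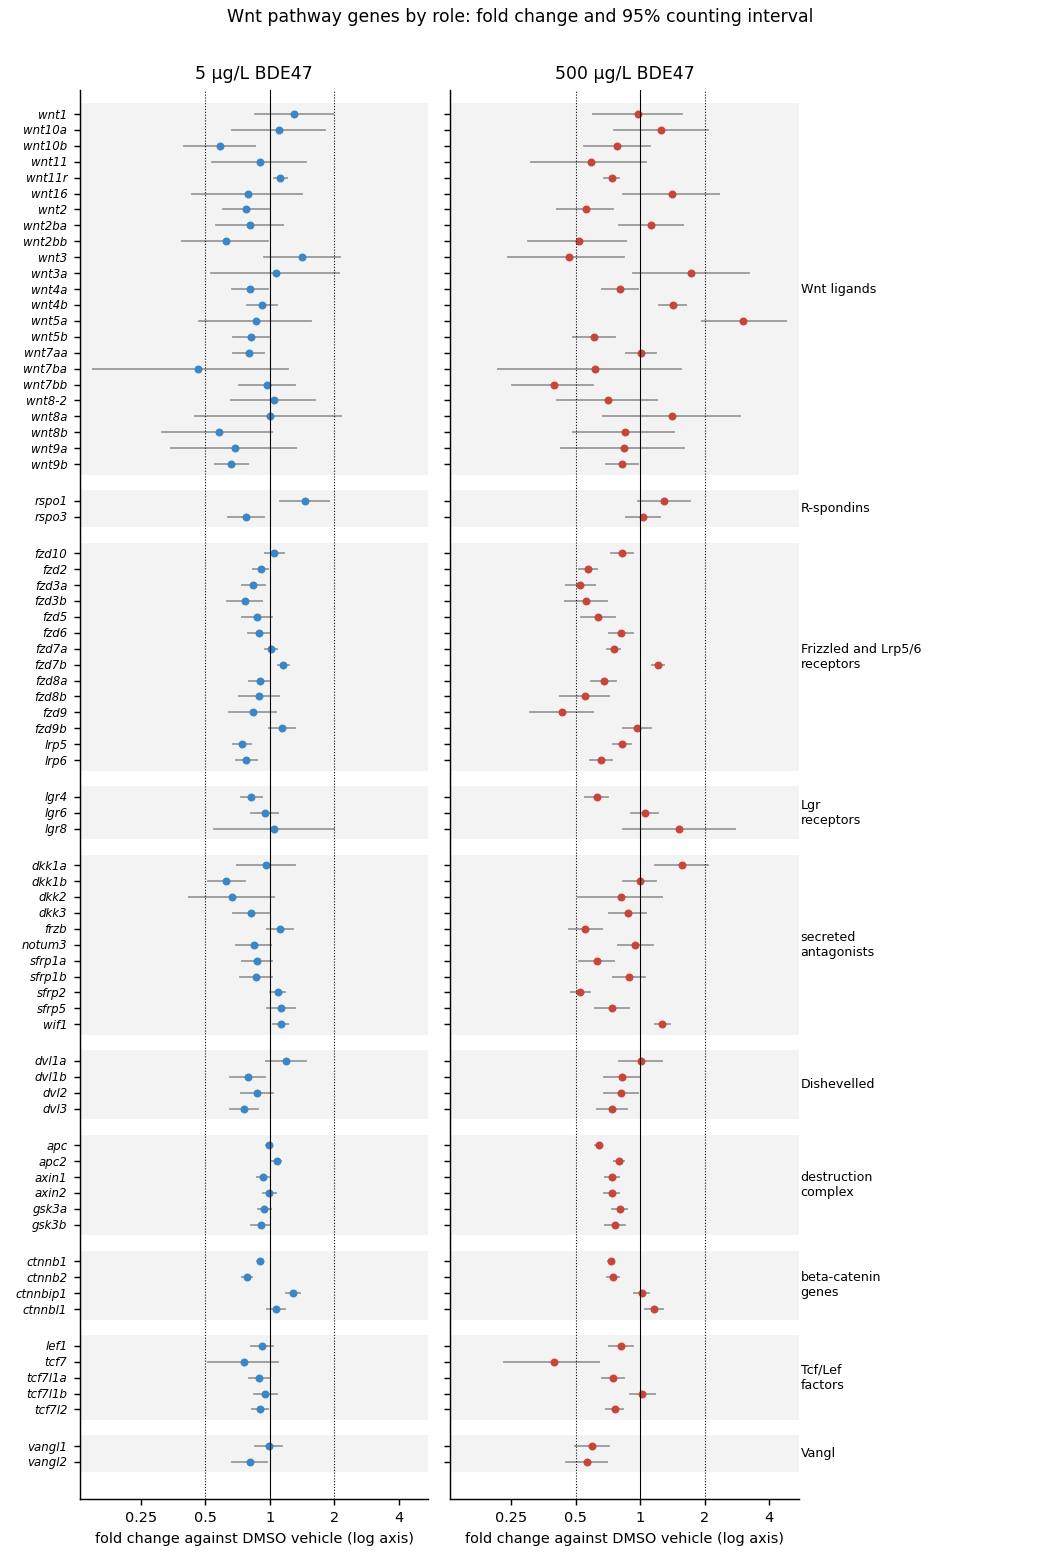
Fold change against DMSO vehicle (horizontal axis, log scale) of the 74 Wnt pathway genes grouped by role, for BDE47 at 5 μg/L on the left and 500 μg/L on the right. Points are ratios of normalized counts, horizontal lines the 95% counting intervals, the solid line marks 1 and dotted lines mark 0.5 and 2. In the right panel 13 of the 14 receptor genes lie left of the solid line. So do all 6 destruction complex genes taken by the name rule, and wnt5a lies farthest to the right at 3.01.

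The genes grouped by name as secreted antagonists of Wnt signalling differed by family. The Sfrp family, including frzb, consists of decoys that carry a Frizzled-like ligand-binding domain. All 5 of these genes lay below 1 at the high dose, with a median log2 fold change of -0.67, while at the low dose 3 of the 5 lay above 1 with a median of 0.12. None was called changed, beside 12.1% of all genes at the high dose and 2.92% at the low dose.

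The values of sfrp2 were 1139.7 normalized counts in DMSO vehicle, 1242 at the low dose and 599.6 at the high dose. The first 2 libraries were close, at 1.09 (95% CI 1.01 to 1.18) for the low dose, while the high dose gave a fold change of 0.526 (0.473 to 0.584). For frzb, first known from cartilage in cattle, the values were 385, 429.6 and 214, with 1.12 (0.975 to 1.28) and 0.555 (0.463 to 0.662). For sfrp1a and sfrp5 the fold changes at the high dose were 0.626 and 0.739, and for sfrp1b the CI of 0.746 to 1.06 included 1.

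The Dkk family includes Dkk1, which blocks the Lrp5/6 co-receptors. The 4 dkk genes were grouped by name, and not all are known to act in this way. All 4 dkk genes lay below 1 at the low dose with a median log2 fold change of -0.43, and at the high dose 3 of 4 did, with a median of -0.10. The values of dkk1b were 262 normalized counts in DMSO vehicle, 164 at the low dose and 261 at the high dose. Only the low-dose library stood apart, with 0.627 (95% CI 0.513 to 0.762) and then 0.998 (0.835 to 1.19). For dkk1a they were 80.6, 77.6 and 126, so that the high dose stood apart at 1.57 (1.18 to 2.08).

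The inhibitor wif1, which binds Wnt ligands directly, held 1070.2 normalized counts in DMSO vehicle, 1205 at the low dose and 1353 at the high dose. The values were in the order of dose, and the fold changes were 1.13 (95% CI 1.04 to 1.22) and 1.26 (1.17 to 1.37). For notum3 (notum1a in RefSeq), whose product removes the lipid that Wnt ligands need, the values were 239, 201 and 227 and both CIs included 1.

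Dishevelled proteins relay the signal from the receptors. Of the 4 dvl genes, 3 lay below 1 at both doses, with medians of -0.27 and -0.28 on the log2 scale. The values of dvl3 (dvl3a in RefSeq) were 396 normalized counts in DMSO vehicle, 301 at the low dose and 292 at the high dose, with fold changes of 0.759 (95% CI 0.653 to 0.881) and 0.738 (0.629 to 0.864). The exposed libraries were close to each other for this gene.

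The 6 destruction complex genes taken by the name rule all lay below 1 at the high dose. Their range was narrow, 0.639 to 0.801, and all 6 CIs lay wholly below 1. Their median log2 fold change was -0.41 at the high dose and -0.05 at the low dose. None was called changed at either dose, beside 12.1% of all genes at the high dose and 2.92% at the low dose. The scaffold gene apc held 7257 normalized counts in DMSO vehicle, 7168 at the low dose and 4641 at the high dose, with fold changes of 0.988 (95% CI 0.957 to 1.02) and 0.639 (0.615 to 0.664). The first 2 libraries did not differ beyond counting error. Its copy apc2 had 1.08 (1.03 to 1.13) and 0.794 (0.753 to 0.838). Outside the name rule, the casein kinase 1 gene csnk1a1 lay above 1 at the high dose, at 1.38 (1.32 to 1.45). It belongs to a list of 20 genes gathered under destruction complex and turnover, of which 14 lay above 1 there. The list also holds casein kinase 2 and other casein kinase 1 genes, and not all of its genes encode parts of the complex.

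The values of axin1, the scaffold that limits the complex, were 1828 normalized counts in DMSO vehicle, 1701 at the low dose and 1349 at the high dose, with 0.930 (95% CI 0.872 to 0.993) and 0.738 (0.686 to 0.794). For axin2, a scaffold that is itself a usual readout of beta-catenin signalling, they were 1497, 1487 and 1106, with 0.993 (0.926 to 1.07) and 0.739 (0.681 to 0.800). Both axin genes were lowest at the high dose by nearly the same ratio. The kinase gene gsk3b (gsk3ba in RefSeq) held 799.9, 725 and 609.6 normalized counts, with 0.906 (0.820 to 1.00) and 0.762 (0.683 to 0.850), and gsk3a (gsk3ab in RefSeq) had 0.801 (0.742 to 0.865) at the high dose.

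Zebrafish have 2 beta-catenin genes. The values of ctnnb1 were 10081 normalized counts in DMSO vehicle, 9046 at the low dose and 7350.4 at the high dose, and the fold changes were 0.897 (95% CI 0.873 to 0.923) and 0.729 (0.707 to 0.752). Those of ctnnb2 were 2644, 2075 and 1971, with 0.785 (0.741 to 0.830) and 0.746 (0.702 to 0.792). Both genes were highest in DMSO vehicle, and the exposed libraries lay closer together for ctnnb2 than for ctnnb1. The inhibitor gene ctnnbip1, whose product keeps beta-catenin from Tcf factors, was highest at the low dose instead, with 1.29 (1.20 to 1.39), and at the high dose it gave 1.02 (0.936 to 1.10). The splicing-associated ctnnbl1 had 1.16 (1.05 to 1.28) at the high dose.

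Of the 5 Tcf/Lef genes, 4 lay below 1 at the high dose, each with a CI wholly below 1, and the median log2 fold change was -0.40. With the low dose all 5 lay below 1 with a median of -0.16, and the CI lay wholly below 1 for 2. The values of lef1, a target as well as a partner of beta-catenin, were 522 normalized counts in DMSO vehicle, 479.9 at the low dose and 425 at the high dose, with fold changes of 0.920 (95% CI 0.813 to 1.04) and 0.814 (0.712 to 0.929). Those of tcf7l2 were 1105, 992 and 839, with 0.897 (0.824 to 0.976) and 0.760 (0.692 to 0.834). Both were lowest at the high dose, while for tcf7l1b the CIs at both doses included 1.

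The Vangl proteins are membrane proteins of the planar cell polarity branch. The values of vangl1 were 349 normalized counts in DMSO vehicle, 344 at the low dose and 209 at the high dose, with fold changes of 0.988 (95% CI 0.852 to 1.14) and 0.599 (0.498 to 0.717). Those of vangl2 were 249, 201 and 139.9, with 0.808 (0.670 to 0.972) and 0.562 (0.449 to 0.699). Both genes were lowest at the high dose, and vangl1 alone was nearly equal in the other 2 libraries.

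Related genes compared within a library do not depend on the scaling between libraries. In 20 pairs of paralogues or close relatives, the share of the pair's reads on its first member was taken with an exact binomial CI. In the high-dose library the CI did not overlap that of DMSO vehicle for 7 pairs, and at the low dose for 4. CIs that exclude no difference were common at this depth: over all single genes tested, 30.6% lay wholly below 1 and 31.0% wholly above at the high dose, and 17.8% and 21.5% did at the low dose. Those shares use a different criterion, a fold change CI that excludes 1, so they are no background for CIs of pairs that do not overlap. No such share was computed for pairs of other genes. Whether 7 of 20 pairs at the high dose, or 4 at the low dose, is unusual was therefore not tested. The share of wnt5a among the reads on both wnt5 genes was 10.2% (95% CI 7.08 to 14.1) in DMSO vehicle, 10.7% (6.66 to 16.0) at the low dose and 35.9% (28.7 to 43.6) at the high dose. This was the widest shift of the 20 pairs. The share of fzd7a in its pair was 53.2% (51.8 to 54.7), 49.9% (48.3 to 51.6) and 41.5% (39.7 to 43.4), so both exposed libraries stood apart from DMSO vehicle.

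The share of fzd9 beside fzd9b was 26.6% in DMSO vehicle and 13.98% at the high dose, that of wnt4a beside wnt4b 44.1% and 31.0%, and that of tcf7l1a beside tcf7l1b 58.4% and 50.6%. For lrp5 beside lrp6 it was 56.9% and 62.3%, and for apc beside apc2 69.2% and 64.4%. For axin1 the share of the reads on both axin genes was 55.0% in DMSO vehicle and 55.0% at the high dose, and gsk3a held 66.1% and 67.2% of its pair. The CIs of both pairs overlapped that of DMSO vehicle at both doses. The share of ctnnb1 was 79.2% (95% CI 78.6 to 79.8) in DMSO vehicle, 81.3% (80.6 to 82.1) at the low dose and 78.9% (77.9 to 79.8) at the high dose, so that the low dose stood apart. The share of dvl1a beside dvl1b also stood apart at the low dose alone, at 48.3% (42.9 to 53.7) against 38.1% (33.9 to 42.5) in DMSO vehicle, and was 43.0% (37.2 to 48.9) at the high dose. How reads that match both of a pair's copies were counted was not given in the sources used here, so the split of reads between similar copies is uncertain.

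**Figure D4:**
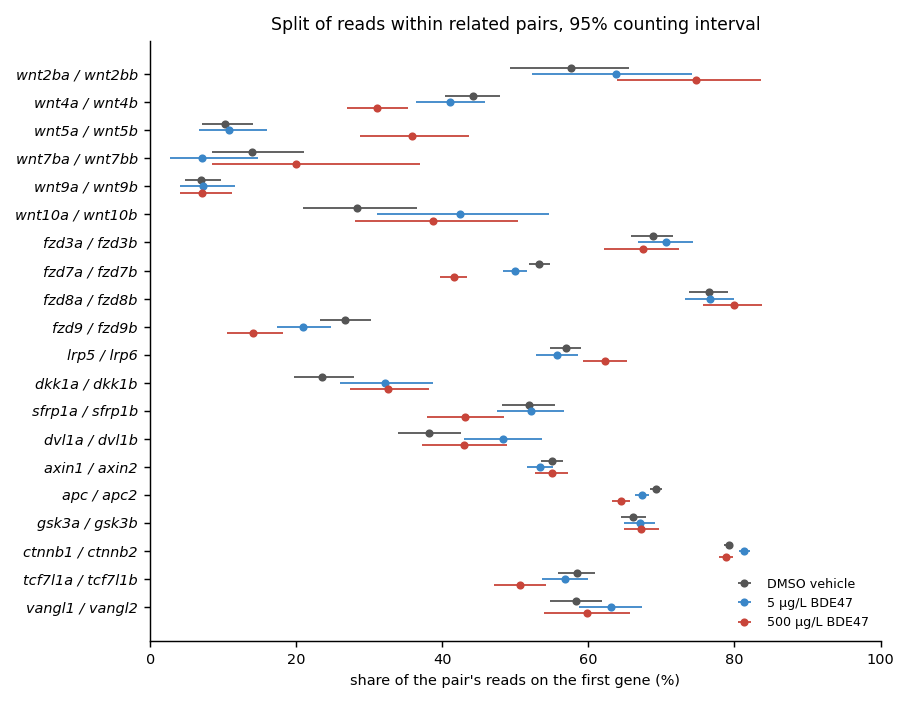
Share of a pair's reads that fell on its first gene (horizontal axis, percent) for 20 pairs of related Wnt pathway genes, with points for each library and lines for the exact 95% binomial intervals. The wnt5a point at the high dose lies at 35.9%, apart from 10.2% in DMSO vehicle, while the 3 points of the axin pair lie between 53.4% and 55.0%.

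The 2 exposed libraries were also compared with each other. With the low dose as the reference, 5 of the 74 genes differed by 2-fold or more at the high dose, beside 11.5% of all named mRNA genes tested. The gene wnt5a was higher, at 3.49 (95% CI 2.07 to 6.10), beside 7.39% of all genes. The 4 lower genes, beside 4.10% of all genes, were wnt3 at 0.330 (0.172 to 0.595), wnt7bb at 0.405 (0.253 to 0.630), sfrp2 at 0.483 (0.433 to 0.538) and frzb at 0.497 (0.413 to 0.597). For fzd9 and tcf7 the ratios were 0.520 and 0.522, short of the threshold.

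Genes of the pathway outside the name rule were described from 5 lists of 112 genes. Of 110 tested at the high dose, 4 were called higher and 3 lower, 64 lay below 1, and the median log2 fold change was -0.16. Of 109 tested at the low dose, 1 was called higher and 3 lower, 60 lay below 1, and the median was -0.05. The share called was thus below the 12.1% of all genes at the high dose and close to the 2.92% at the low dose.

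In the list of Wnt secretion and membrane partners, 1 of 14 genes rose and 1 fell at the high dose, beside 7.40% and 4.74% of all genes, with a median log2 fold change of -0.17. The proteoglycan gene sdc4 held 2487 normalized counts in DMSO vehicle, 2686 at the low dose and 7001 at the high dose, and its fold change there was 2.81 (95% CI 2.69 to 2.94). The receptor kinase gene ror1, which binds Wnt5a in mammals, held 89.3, 57.9 and 41.2, with 0.462 (0.303 to 0.686). The genes LOC100006275 (porcn in RefSeq) and wls, whose products attach a lipid to Wnt ligands and carry them to the surface, had fold changes of 0.815 (95% CI 0.656 to 1.01) and 0.819 (0.771 to 0.871) at the high dose, and the CI of the first included 1.

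In the list of nuclear cofactors and intracellular inhibitors, 18 of 22 genes lay below 1 at the high dose, each with a CI wholly below 1, and the median log2 fold change was -0.46. Only 1 was called changed, beside 12.1% of all genes. It was LOC100329473 (ccdc88aa in RefSeq, girdin in mammals, an actin-binding protein and no nuclear cofactor). Its values were 1092, 1183 and 448 normalized counts, with a fold change of 0.411 (95% CI 0.365 to 0.462). The Groucho corepressor gene gro1 (tle3b in RefSeq) held 899, 639.5 and 479.7, with 0.534 (0.474 to 0.600) at the high dose. The list of destruction complex and turnover genes, mostly casein kinase 1 and phosphatase 2A subunits, went the other way. Of these, 14 of 20 lay above 1, the median was 0.09, and 0 were called changed, beside the same 12.1%.

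In the list of planar cell polarity partners, 18 of 27 lay below 1 at the high dose with a median log2 fold change of -0.18. Of these, 1 was called higher and 0 lower, beside 7.40% and 4.74% of all genes. The called gene was the small GTPase gene rhoab, with 1952, 2422 and 4202 normalized counts and a fold change of 2.15 (95% CI 2.04 to 2.27). In the list of canonical target genes, 29 were tested, of which 16 lay below 1, and the median was -0.08. The CI lay wholly below 1 for 13 and wholly above 1 for 6, beside 30.6% and 31.0% of all genes. Of the 29, 2 were called higher and 1 lower, beside 7.40% and 4.74% of all genes. The gene msxa (msx2a in RefSeq), a homeobox gene of the fin and skull, held 28.5, 49.2 and 58.7, with 2.06 (1.31 to 3.28), and tbx6 (tbx16l in RefSeq) rested on 4 reads in DMSO vehicle and 9 at the high dose, with a CI of 0.993 to 15.8 that included 1. The third was LOC100330801 (cd44b in RefSeq), with 30.8, 5.47 and 15.0 normalized counts, which was called lower at both doses, with 0.177 (0.0545 to 0.450) at the low dose and 0.486 (0.232 to 0.948) at the high dose. The other calls at the low dose were pygo1 and tbx16, which were lower at 0.477 and 0.346, and tbx6, which was higher, each with a CI that included 1.

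Markers of organs also differed at the high dose, where 4.74% of all genes were called lower and 7.40% higher. The summed normalized counts relative to DMSO vehicle were 0.623 for 12 cartilage and bone markers (6 of 12 called lower), 0.578 for 10 photoreceptor markers (4 called lower), 0.870 for 8 neuron markers (1 called lower) and 0.591 for 7 epidermis markers (2 called lower, 1 higher). They were 0.899 for 6 fin fold markers (2 called lower), 0.619 for 7 liver and exocrine pancreas markers (2 called lower), 1.01 for 7 skeletal muscle markers, 1.21 for 5 intestine markers and 1.47 for 8 endothelium and blood markers (1 called higher). Such sums follow the markers with the most reads. The median log2 fold change per marker was -0.73 for the fin fold (5 of 6 below 1) and -0.40 for the intestine (3 of 5 below 1), whose sum was above 1. It was -0.87 for cartilage and bone, -0.73 for photoreceptors, -0.35 for neurons, -0.34 for the epidermis, -0.67 for liver and exocrine pancreas, -0.01 for skeletal muscle and 0.53 for endothelium and blood. For the low-dose library these ratios ran from 0.828 for the fin fold to 1.11 for neurons. The osteocalcin gene (LOC792433) was listed at 0 at the low dose and the globin gene ba1 in every library. The intestine marker cdx1b is also in the list of canonical target genes, and the intestine median of -0.40 was its value. The part of the organ markers in the Wnt pathway values was not tested.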

How the data were processed

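The authors mapped clean reads from poly(A)-selected RNA to the zebrafish (Zv9) and human (hg19) assemblies by BLAST, counted them per gene and scaled them by TMM normalization. The deposited signal is therefore a normalized count. The counting tool, annotation and strand handling were not given in the sources used here. Per library, 100% of values were whole reads within 0.01 of a read. The 11 entries whose names were bare clone prefixes (zgc and the like), which took between 15.8% and 16.1% of all reads per library, were left out, and only mRNA entries were analysed. The deposited table also held human matches by sequence. RefSeq (GRCz12tu) gave current symbols for 73 of the 74 genes, and no coordinates were used.

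Fold changes were ratios of deposited values, and CIs were Clopper-Pearson intervals. As alternatives, no filter, a minimum of 50, scaling to the total or to a median ratio of 1, a pseudocount of 5, a 1.5-fold threshold, Fisher's exact test, the rewritten MARS test of DEGseq, and edgeR's exact test at a preset BCV (0.2 or 0.4) were used. The p-values of Fisher's and edgeR's tests were adjusted by Benjamini-Hochberg over all named mRNA genes, and those of MARS were not adjusted. The low-dose library served as another reference, and 14 rows found by human match were added after the data were seen. On the recovered reads Fisher's exact test with the 2-fold threshold called 355 genes at 5 μg/L (112 higher, 243 lower) and 2069 at 500 μg/L (1302 higher, 767 lower). None of these tests holds a replicate. The statistics were tested on simulated reads that held counting error only. The simulation had no variation between pools or libraries, and its planted changes were larger than those of the called Wnt pathway genes. It could therefore not show how the statistics behave for such genes in real pools. The genes and lists were chosen with earlier results of these data known. The rule for naming took every gene called changed, in each role the gene whose deposited value in DMSO vehicle was highest (not corrected for length), axin1, axin2, apc, gsk3b, ctnnb1, ctnnb2 and lef1, and up to 3 called genes per direction from each list with at least 50 normalized counts. Other genes named were chosen after their values were seen. Python 3.11.15, numpy 2.4.6, pandas 2.3.3, scipy 1.17.1, matplotlib 3.10.9, R 4.3.3 and edgeR 4.0.16 were used.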

Additional observations from a re-analysis of the deposited data

How the results depend on the processing

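At the high dose the count of 5 called Wnt pathway genes became 26 (4 higher, 22 lower) at 1.5-fold and 0 with edgeR's exact test at a BCV of 0.2 or 0.4. At 1.5-fold 3021 of the 17758 named mRNA genes tested were called higher there and 2638 lower. The share of Wnt pathway genes called at 1.5-fold was thus below that of all genes for higher calls and above it for lower calls. The count of 5 at 2-fold became 4 with a minimum of 50 or a pseudocount of 5, both without wnt3, and 6 (2 higher) with the 14 rows found by human match. At the low dose the single call became 6, all lower, at 1.5-fold, and 0 with a minimum of 50, a pseudocount of 5, Fisher's exact test, the MARS test or edgeR at either BCV. Of the 17670 named mRNA genes tested at the low dose, 623 were called higher at 1.5-fold and 1025 lower. The share of all named mRNA genes called at the low dose was 2.60% of 19814, and it became 8.19% without a filter, 0.636% with a minimum of 50, 1.45% with a pseudocount of 5, 8.32% at 1.5-fold, and 0.0252% and 0% with edgeR at a BCV of 0.2 and 0.4. At the high dose it was 10.9%, and it became 28.6% at 1.5-fold and 3.47% and 0.0959% with edgeR. Without a filter it was 16.2% at the high dose, with a minimum of 50 it was 8.01% and with a pseudocount of 5 it was 9.06%. The median log2 fold change of the 74 genes at the high dose was -0.24 against the low-dose library, and between -0.39 and -0.32 under the other settings. At the low dose it lay between -0.18 and -0.15. The stricter or looser thresholds set these counts by construction, and the cause of the other shifts was not tested. For single genes the alternatives were scaling to the total or the median and a pseudocount of 5, on the same libraries. In 126 of 126 the fold change kept its direction and its side of the threshold, or moved by less than its CI. The last clause made a failure unlikely, so this count shows little. With a pseudocount of 5, wnt3 at the high dose moved from 0.465 to 0.524, and wnt7ba at the low dose from 0.461 to 0.601. Under total scaling fzd7a at the low dose moved from 1.01 to 0.997. Scaling to the total or the median shifted all log2 fold changes by at most -0.04. No paired analysis was possible because each condition had 1 library. Depth limits the ligands most, several of which had under 50 reads in a library.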

Other observations

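Rows named only by a locus number were not reached by the name rule. For 14 of them the human match by sequence had a symbol that begins like one of the rule, a set added after the data were seen. The set includes LOC100001408, LOC100331321 and LOC100332639, which matched APCDD1L or APCDD1 and were taken only because these symbols begin with APC. Of the 9 tested at the high dose, 7 lay below 1 and the median log2 fold change was -0.43. Of the 8 tested at the low dose, 6 lay below 1 with a median of -0.10. The row LOC100333651, which matched human FZD4, a receptor known for growth of retinal vessels in mammals, held 147 normalized counts in DMSO vehicle, 112 at the low dose and 93.7 at the high dose, with fold changes of 0.758 (95% CI 0.590 to 0.971) and 0.637 (0.481 to 0.838). It was lowest at the high dose, as was LOC100149082 (dvl3b in RefSeq), with 187, 180.4 and 125 normalized counts and 0.670 (0.525 to 0.850) at the high dose.

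The row LOC566040 (notum2 in RefSeq) was highest at the low dose, with 159, 208 and 101 normalized counts and fold changes of 1.31 (95% CI 1.07 to 1.60) and 0.637 (0.486 to 0.828). LOC561183 (ror2 in RefSeq, a receptor kinase for Wnt5a) held 213, 212 and 171, with 0.802 (0.648 to 0.989) at the high dose. LOC557882 (gsk3bb in RefSeq) was above 1 there, at 1.13 (0.867 to 1.48), a CI that included 1. The only call, beside 12.1% of all genes at the high dose, was LOC100331321, which matched human APCDD1. Its fold change was 2.46 (0.991 to 6.44), a CI that included 1, from 9 reads in DMSO vehicle and 14 at the high dose.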
